A study of Mus musculus with 12 samples.

Results

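Selenoproteins were followed in B16F10 cells, a mouse melanoma line, after knockdown of Osgep. Members were the 10 listed genes Gpx1, Gpx4, Msrb1, Selenow, Selenoh, Selenok, Selenos, Selenot, Selenof and Selenom, taken from the 55487 genes of the count tables by symbol and Ensembl gene ID. Each has 1 in-frame UGA in its annotated coding sequence. The cells expressed a short hairpin RNA, which was either a control (shCtr) or hairpin 2 against Osgep (shOSGEP). The hairpins were delivered by lentivirus into a population selected with puromycin, so the lines are not clones, and a single Osgep hairpin was sequenced. Ribosome-protected fragments (RPF) and total RNA were counted in 3 replicates of each genotype, which gave 12 libraries in 4 groups. An RPF and a total RNA library with the same genotype and replicate number were treated as 1 cell sample. For the footprints, cells received 10 µg/mL cycloheximide for 5 min before lysis, and RPF were cut from a gel at 25 to 35 nucleotides. Total RNA is the name of those libraries in the labels, which elsewhere give their molecule as polyA RNA.

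Selenoproteins contain selenocysteine, the selenium form of cysteine, usually at the reactive site of an enzyme. Their messages encode it with UGA, which elsewhere stops translation. The ribosome reads that UGA through only when a hairpin in the 3′ untranslated region recruits Secisbp2, which with the elongation factor Eefsec delivers the selenocysteine tRNA. Ribosomes that do not read through end there, and the message can then be a substrate of nonsense-mediated decay. In melanoma and other tumour cells the family is best known for Gpx4, which reduces lipid peroxides in membranes and restrains ferroptosis. Osgep provides the catalytic activity of KEOPS, a complex that adds the t6A modification beside the anticodon of those tRNAs that pair with ANN codons, the codons with A in first place. UGA is not such a codon, and the selenocysteine tRNA instead carries isopentenyladenosine, made by Trit1.

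The place of the recoded codon differs widely among the members, and 5 of them are shown because they span that range. Each line gives up to 30 bases of the coding strand of the RefSeq-matched transcript on GRCm38, with the selenocysteine codon in capitals.
Selenow: gtgtattgtggagctTGAggctataagccc
Gpx1: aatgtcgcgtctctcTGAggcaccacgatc
Gpx4: aacgtggcctcgcaaTGAggcaaaactgac
Selenok: ccaatggctggtggaTGAggaaggtaa
Selenos: ccatcatctggcggcTGAaactaa
In Selenow the codon is number 13 of 88 (chr7:15920464-15920466, minus strand), so that 75 codons lie behind it. For Gpx1 it is number 47 of 201 (chr9:108339451-108339453, plus strand) and for Gpx4 number 73 of 197 (chr10:80054737-80054739, plus strand). Selenok reads it as number 92 of 94 (chr14:29973440-29973442, plus strand) and Selenos as number 189 of 190 (chr7:66088844-66088846, plus strand). The last 2 lines therefore end with the true stop codon taa within a few bases of the recoded one. Of the members not printed, Selenoh (38 of 116), Selenom (48 of 145) and Selenot (49 of 195) have it in the first part of the coding sequence. Selenof has it at 93 of 162 and Msrb1 at 95 of 116. ANN codons made up 19.3% to 28.7% of the members' coding sequences, below the median of coding genes (27.7%) in 9 of 10, with Selenok above it.

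Depth and composition differed between the libraries. Counts per member ranged from 368 to 21708 in a total RNA library and from 29 to 2138 in an RPF library, where ribosomal RNA took 27.7% to 67.7% of all counts. Protein-coding genes held 43.7 to 74.5 M counts (M for mega) per total RNA library and 4.42 to 17.02 M per RPF library, the lowest being shOSGEP replicate 1. Osgep RNA was at 13.9, 15.7 and 15.3 CPM (counts per M, after TMM scaling) in shCtr and at 0.589, 6.92 and 6.77 CPM in shOSGEP replicates 1, 2 and 3. Replicate 1 of shOSGEP stood apart, with 4.25% of the Osgep RNA of its control left against 44.0% and 44.4%. Of Osgep RPF, 63.1%, 52.3% and 50.1% were left. In pair 1, 21.7% of all genes tested had a log2 change beyond 1 in total RNA, against 4.45% and 4.43% in pairs 2 and 3. The 7 melanocyte markers were also lower in that pair, by a median of −2.16 on the log2 scale in total RNA, and their summed level was 9665 to 16837 CPM in shCtr and 2655 to 12789 CPM in shOSGEP. The 4 leukocyte markers summed to at most 0.908 CPM in any library, the 2 endothelial markers to at most 0.217 CPM and the 2 keratinocyte markers to at most 0.207 CPM. Cd3e and Adgre1 (leukocyte), Cdh5 (endothelial) and Krt5 (keratinocyte) had 0 counts in all 3 libraries of at least 2 of the 4 groups. The 3 fibroblast markers, of which melanoma cells can express some, summed to 6.51 to 8.81 CPM in shCtr total RNA and 10.1 to 25.2 CPM in shOSGEP. Because of this, results in which replicate 1 stood apart are also given without it, and the part of the markers in them was not tested.

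The first comparison asked whether loss of Osgep changed the RNA, the footprints or the translation of these genes. No selenoprotein gene passed the test. All 10 passed the filter on low counts in each fit, and 0 of 10 had an adjusted p under 0.05 in total RNA, in RPF or in translational efficiency, meaning RPF relative to total RNA and called the ratio from here on (edgeR quasi-likelihood test, Benjamini-Hochberg over all genes tested). Among all genes tested, 0% were called in each of the 3 families. This includes Osgep itself, with a fitted change of −1.65 ± 0.77 (SE) in total RNA and −0.84 ± 0.39 in RPF (edgeR adjusted p 0.975 and 0.9998). A lack of calls therefore does not show that a gene stayed unchanged. In each family 0 of 10 members reached an unadjusted p under 0.05, a level that 1.78% of genes reached in total RNA, 1.03% in RPF and 0.135% for the ratio. DESeq2 and limma voom also called 0 members, and neither gave one an unadjusted p under 0.05. The smallest adjusted p of a member was 0.975 in total RNA, 0.9998 in RPF and 0.999965 for the ratio. On the log2 scale, the median fitted change over members was −0.03 in total RNA, −0.04 in RPF and −0.04 for the ratio, beside 0.02, 0.05 and 0.0058 over all genes tested. Without replicate 1 the medians over members were −0.05, −0.21 and −0.09. The median of that fit over all genes is not given here, but the all-gene medians of pairs 2 and 3 lay between −0.02 and 0.01 in all 3 families. The SE of a member's change lay between 0.14 and 0.49 in total RNA, between 0.22 and 0.77 in RPF and between 0.24 and 0.96 for the ratio. The fit of the ratio does not use the pairing of both assays within a cell sample. With the cell sample as a block its SE lay between 0.21 and 0.52, and 0 of 10 members reached an unadjusted p under 0.05 (smallest 0.11, edgeR). The fits of total RNA and RPF likewise leave out the pairing by replicate number. With the replicate as a block their SE lay between 0.11 and 0.34 and between 0.18 and 0.44. Again 0 of 10 members reached an unadjusted p under 0.05 (smallest 0.13 and 0.10, edgeR). The shares of all genes at these levels are given for the main fits only, and not for DESeq2, limma voom or the fits with a block.

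**Figure D1:**
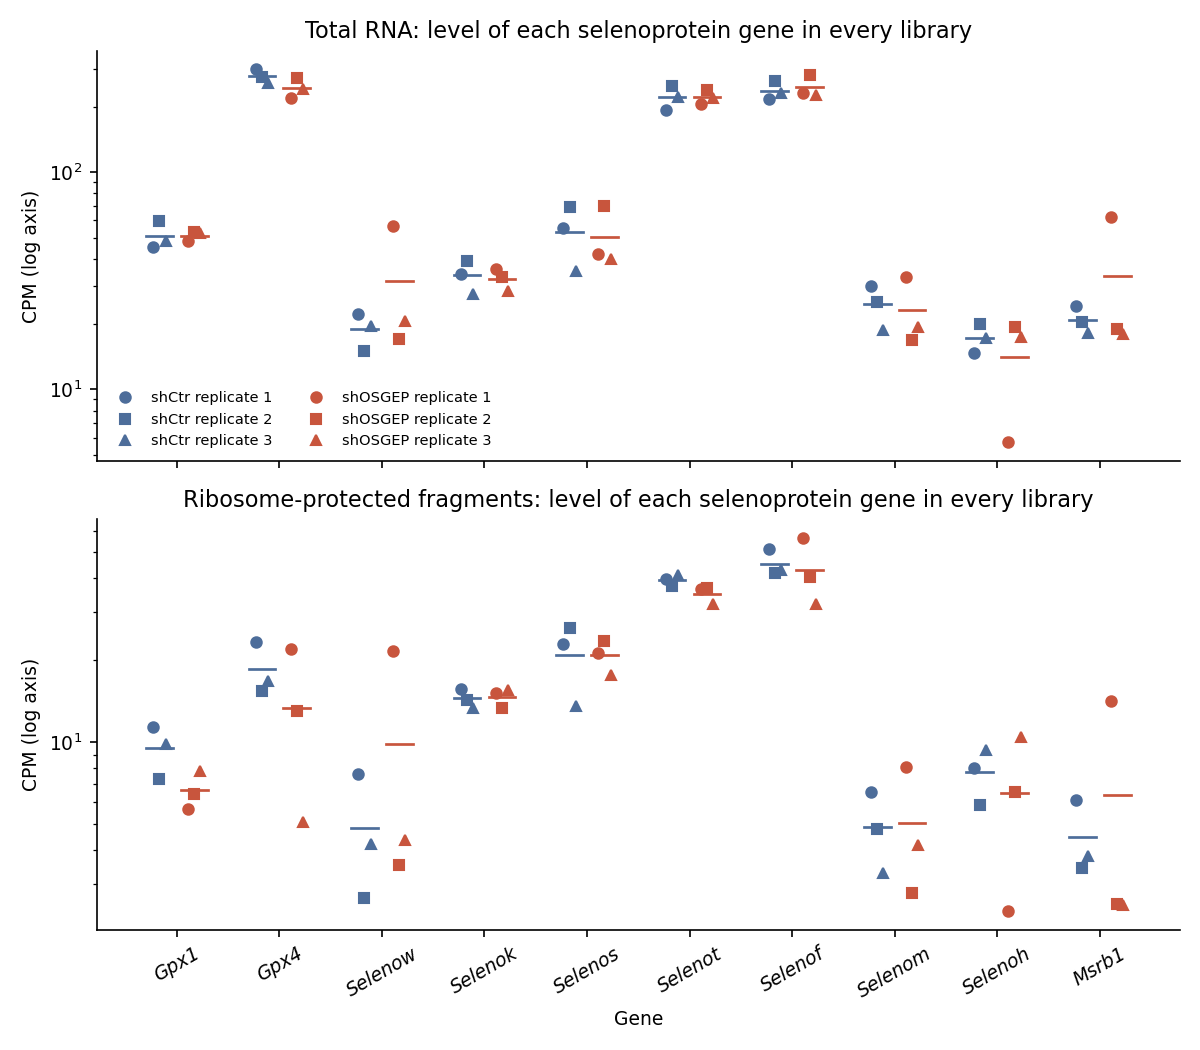
CPM on a log axis for each selenoprotein gene in all 12 libraries, total RNA above and RPF below. Points are libraries, symbols are replicate numbers and horizontal bars are means of 3. Selenow, Msrb1 and Selenoh have a single shOSGEP library, replicate 1, far from the other libraries of the gene in total RNA (56.9, 62.5 and 5.70 CPM).

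Among the peroxidases, Gpx1 removes hydrogen peroxide in the cytosol with glutathione. Its RNA was at 45.1, 59.6 and 48.4 CPM in shCtr and at 48.1, 52.9 and 52.4 CPM in shOSGEP replicates 1, 2 and 3, so the genotypes overlapped. Gpx1 footprints were at 11.4, 7.34 and 9.85 CPM in shCtr and at 5.70, 6.44 and 7.85 CPM in shOSGEP. They were lower in 3 of 3 pairs, by −0.99, −0.19 and −0.32 on the log2 scale, while the groups still overlapped between 7.34 and 7.85 CPM. The fitted change of Gpx1 was 0.0031 ± 0.16 (SE) in total RNA, −0.51 ± 0.29 in RPF and −0.51 ± 0.30 for the ratio. Without replicate 1 of both genotypes its RPF change was −0.28 ± 0.30 and that of the ratio −0.24 ± 0.29, with an SE larger than the change.

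Per length, Gpx4 had the highest RNA level of the members in both genotypes. In CPM it overlapped with Selenof, at 277 ± 20.2 (SD, n = 3) against 237 ± 23.7 in shCtr and at 244 ± 25.8 against 247 ± 29.3 in shOSGEP. Its RNA measured 297, 275 and 257 CPM in shCtr and 219, 270.4 and 243 CPM in shOSGEP, lower in 3 of 3 pairs, with groups that overlapped. The pairs differed by −0.44, −0.03 and −0.08, mainly in pair 1. Gpx4 footprints were assigned far fewer counts, with 23.4, 15.5 and 16.8 CPM in shCtr and 21.96, 12.97 and 5.11 CPM in shOSGEP. They too were lower in 3 of 3 pairs, by −0.09, −0.25 and −1.70, and the largest difference lay in replicate 3 and not in replicate 1. For Gpx4 the fit gave −0.18 ± 0.14 in total RNA, −0.48 ± 0.51 in RPF and −0.31 ± 0.56 for the ratio. Leaving out libraries moved its total RNA change between −0.27 and −0.06.

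The counts of Gpx4 are uncertain, since its reads can be shared with a near-identical copy. Of the 30-base windows of its coding sequence, 83.5% occur elsewhere in GRCm38, mostly in Gpx4-ps2, a transcribed processed pseudogene (chr10:45875291-45876086, plus strand). Gpx4-ps2 held 464 of the windows. The protein-coding gene Hnrnpll and the processed pseudogene AC122253.3 held 138 each, and their counts were not added to Gpx4 below. In total RNA, Gpx4-ps2 held 0.0598 to 0.0716 counts for each count of Gpx4. In RPF it held 2.19 to 7.18 counts for each one of Gpx4, so most footprint counts that match this pair were listed under the pseudogene. Which locus each read came from cannot be told apart from counts. Gpx4-ps2 footprints were at 68.2, 66.1 and 51.8 CPM in shCtr and at 48.1, 48.4 and 36.7 CPM in shOSGEP. These groups did not overlap, and the pairs differed by −0.50, −0.45 and −0.50. The fitted change of Gpx4-ps2 in RPF was −0.48 ± 0.26 with an edgeR adjusted p of 0.9998, and 2.64% of all genes tested in RPF likewise had all shOSGEP below all shCtr values. Gpx4-ps2 was not a member and was singled out after its counts were seen.

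With Gpx4-ps2 added to Gpx4, an alternative chosen after seeing the data, the summed footprints measured 91.6, 81.6 and 68.6 CPM in shCtr and 70.0, 61.4 and 41.8 CPM in shOSGEP. The sum was lower in 3 of 3 pairs, by −0.39, −0.41 and −0.72. Pair 3 still differed most, but by less than for Gpx4 alone (−1.70). The groups overlapped only between the lowest shCtr and the highest shOSGEP library. The fitted change of the sum was −0.48 ± 0.29 in RPF, −0.18 ± 0.14 in total RNA and −0.30 ± 0.31 for the ratio, with edgeR adjusted p of 0.9999, 0.975 and 0.9999.

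**Figure D2:**
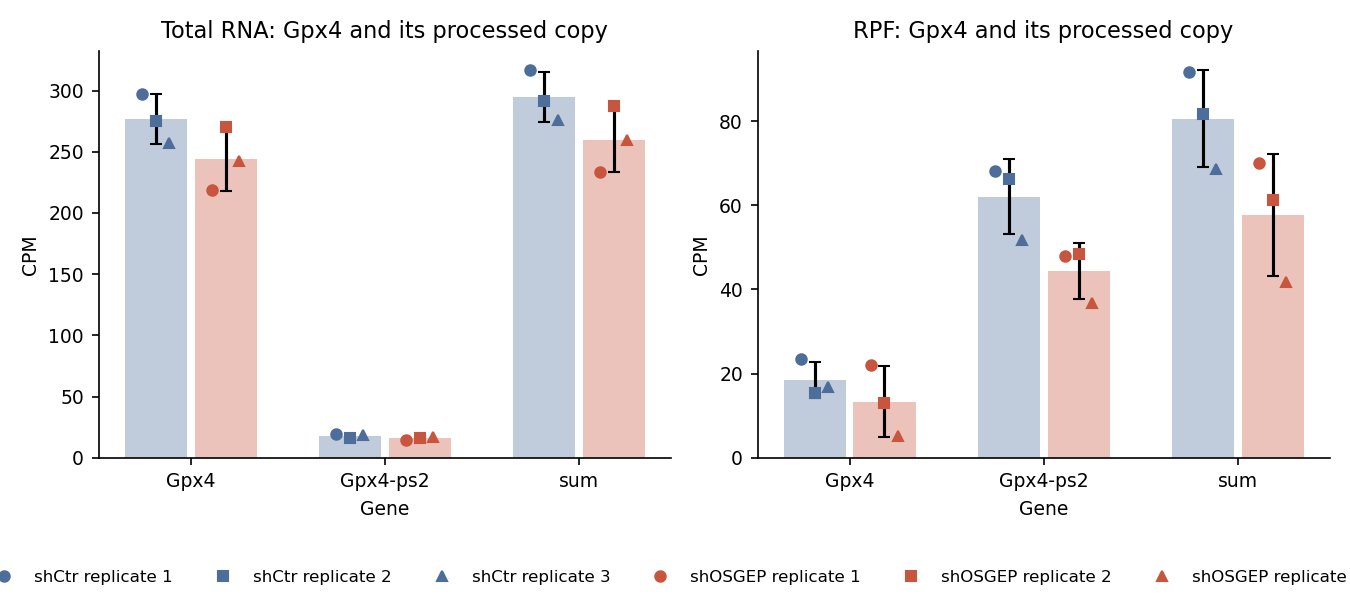
CPM of Gpx4, of its processed copy Gpx4-ps2 and of the sum of both, in total RNA (left) and RPF (right), with bars for the mean, error bars for the SD over 3 replicates and points for libraries. The copy is the small column in total RNA (18.02 ± 1.41 CPM in shCtr) and the tall one in RPF (62.1 ± 8.90 CPM in shCtr).

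Msrb1 and the small redox proteins Selenow and Selenoh differed mainly in replicate 1. Msrb1 reduces oxidised methionine in proteins, and its RNA was at 24.2, 20.4 and 18.2 CPM in shCtr and at 62.5, 19.0 and 17.99 CPM in shOSGEP. Its footprints were at 6.14, 3.46 and 3.83 CPM in shCtr and at 14.1, 2.54 and 2.51 CPM in shOSGEP. Replicate 1 was thus 2.59-fold higher in RNA and 2.30-fold higher in RPF, whereas pairs 2 and 3 were lower in both. The ratio of Msrb1 was lower in 3 of 3 pairs (−0.18, −0.33 and −0.57). Msrb1 had a fitted change of 0.66 ± 0.49 in total RNA, 0.50 ± 0.73 in RPF and −0.18 ± 0.94 for the ratio. Without replicate 1 it was −0.07 ± 0.14, −0.54 ± 0.37 and −0.47 ± 0.27, so the direction turned in RNA and RPF.

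Selenow, a small thioredoxin-fold protein, was at 22.1, 15.0 and 19.6 CPM in shCtr total RNA and at 56.9, 17.1 and 20.6 CPM in shOSGEP. Its RPF level was 7.61, 2.67 and 4.21 CPM in shCtr and 21.7, 3.53 and 4.35 CPM in shOSGEP. Selenow was higher in 3 of 3 pairs in both assays, but by 2.57-fold in RNA and 2.86-fold in RPF in pair 1 and by at most 1.14-fold and 1.32-fold in the others. For Selenow the fit gave 0.74 ± 0.46 in total RNA, 1.02 ± 0.77 in RPF and 0.27 ± 0.96 for the ratio. Without replicate 1 it was 0.12 ± 0.19, 0.18 ± 0.40 and 0.05 ± 0.39. Weighting libraries by quality in limma voom turned the RPF change to −0.09 for Selenow and to −0.64 for Msrb1.

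Selenoh, a DNA-binding protein of the nucleolus, differed in the opposite direction. It was at 14.7, 20.03 and 17.3 CPM in shCtr total RNA and at 5.70, 19.3 and 17.4 CPM in shOSGEP. Footprints of Selenoh were at 8.001, 5.88 and 9.33 CPM in shCtr and at 2.39, 6.56 and 10.5 CPM in shOSGEP, the first of these resting on 29 counts. Replicate 1 was lower by −1.36 in RNA and −1.71 in RPF, and pairs 2 and 3 lay between −0.05 and 0.16. The fitted change of Selenoh was −0.29 ± 0.43 in total RNA, −0.25 ± 0.52 in RPF and 0.05 ± 0.72 for the ratio, and without replicate 1 these were −0.03 ± 0.16, 0.14 ± 0.38 and 0.18 ± 0.41. Pair 1 thus held 3 of 10 members beyond 1 on the log2 scale in total RNA and 3 of 10 in RPF, against 21.7% and 27.2% of all genes tested, so these shares were near those of other genes.

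The endoplasmic reticulum holds the other 5 members. Selenok and Selenos are membrane proteins that bind Derlins and the ATPase Vcp, which pull misfolded proteins out for degradation. Selenok RNA was at 34.1, 39.2 and 27.4 CPM in shCtr and at 35.7, 33.0 and 28.4 CPM in shOSGEP. Its footprints were at 15.7, 14.3 and 13.4 CPM in shCtr and at 15.1, 13.4 and 15.6 CPM in shOSGEP. The groups overlapped throughout, and the fitted change was −0.05 ± 0.18 in total RNA, 0.02 ± 0.22 in RPF and 0.08 ± 0.26 for the ratio. Copies bear on Selenok as well, since 86.2% of its 30-base windows occur elsewhere, yet its annotated copies held at most 58 RPF counts each in a library, against 183 to 668 for Selenok itself. The 58 counts lay in shOSGEP replicate 1, the library in which Selenok had 183. With the copies added its RPF change was 0.07 ± 0.25, and pair 1 turned from −0.06 to 0.08.

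Selenos RNA was at 55.6, 69.0 and 35.0 CPM in shCtr and at 42.1, 69.7 and 39.9 CPM in shOSGEP. The footprints of Selenos were at 23.0, 26.4 and 13.6 CPM in shCtr and at 21.3, 23.5 and 17.7 CPM in shOSGEP. Replicate 2 was the highest in each of the 4 groups, and the genotypes overlapped. For Selenos the fit gave −0.07 ± 0.32 in total RNA, −0.0099 ± 0.31 in RPF and 0.07 ± 0.46 for the ratio.

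Selenot, Selenof and Selenom are thioredoxin-fold proteins of the lumen or membrane of this compartment, and Selenof is a partner of Uggt1, the sensor of glycoprotein folding. Selenot RNA was at 193, 251 and 222 CPM in shCtr and at 207, 240.4 and 219 CPM in shOSGEP. Its footprints were at 39.8, 37.6 and 41.0 CPM in shCtr and at 36.4, 36.7 and 32.1 CPM in shOSGEP. Among the 10 members Selenot alone had RPF groups that did not overlap, against 2.64% of all genes tested in this direction. It was lower in 3 of 3 pairs (−0.13, −0.03 and −0.35), with a fitted change of 0.0021 ± 0.15 in total RNA, −0.17 ± 0.22 in RPF and −0.17 ± 0.24 for the ratio.

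Selenof RNA was at 217, 263 and 231 CPM in shCtr and at 232, 280.4 and 227 CPM in shOSGEP. Its RPF level was 51.4, 41.8 and 42.8 CPM in shCtr and 56.4, 40.5 and 32.2 CPM in shOSGEP. The genotypes overlapped in both assays, with a fitted change of 0.06 ± 0.15 in total RNA, −0.08 ± 0.29 in RPF and −0.13 ± 0.32 for the ratio. Selenom RNA was at 30.1, 25.4 and 18.8 CPM in shCtr and at 33.0, 16.9 and 19.5 CPM in shOSGEP. The footprints of Selenom were at 6.54, 4.79 and 3.30 CPM in shCtr and at 8.09, 2.79 and 4.20 CPM in shOSGEP. Pair 2 was lower and pairs 1 and 3 were higher in both assays, and the fitted change was −0.10 ± 0.30 in total RNA, 0.04 ± 0.49 in RPF and 0.13 ± 0.58 for the ratio.

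Counted by pairs, 3 of 10 members were lower in all 3 pairs in RPF (Gpx1, Gpx4 and Selenot), against 15.2% of all genes tested, and 1 was higher (Selenow), against 15.6%. In total RNA, 1 was lower (Gpx4), against 16.2%, and 1 was higher (Selenow), against 17.7%. The ratio was lower in all 3 pairs in 2 members (Gpx1 and Msrb1), against 11.2%, and higher in 0, against 11.6%. Without regard to pairs, shOSGEP and shCtr values overlapped for all 10 members in total RNA and for the ratio. Of all genes tested, 4% lay higher and 3.09% lower without overlap in total RNA, and 2.03% and 2.31% for the ratio. Over all members the summed level was 933, 1038 and 896 CPM in shCtr and 942, 1019 and 886 CPM in shOSGEP total RNA. In RPF it was 193, 160 and 158 CPM in shCtr and 203, 149 and 132 CPM in shOSGEP. The groups overlapped in both assays, and pair 1 was higher while pairs 2 and 3 were lower in both.

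**Figure D3:**
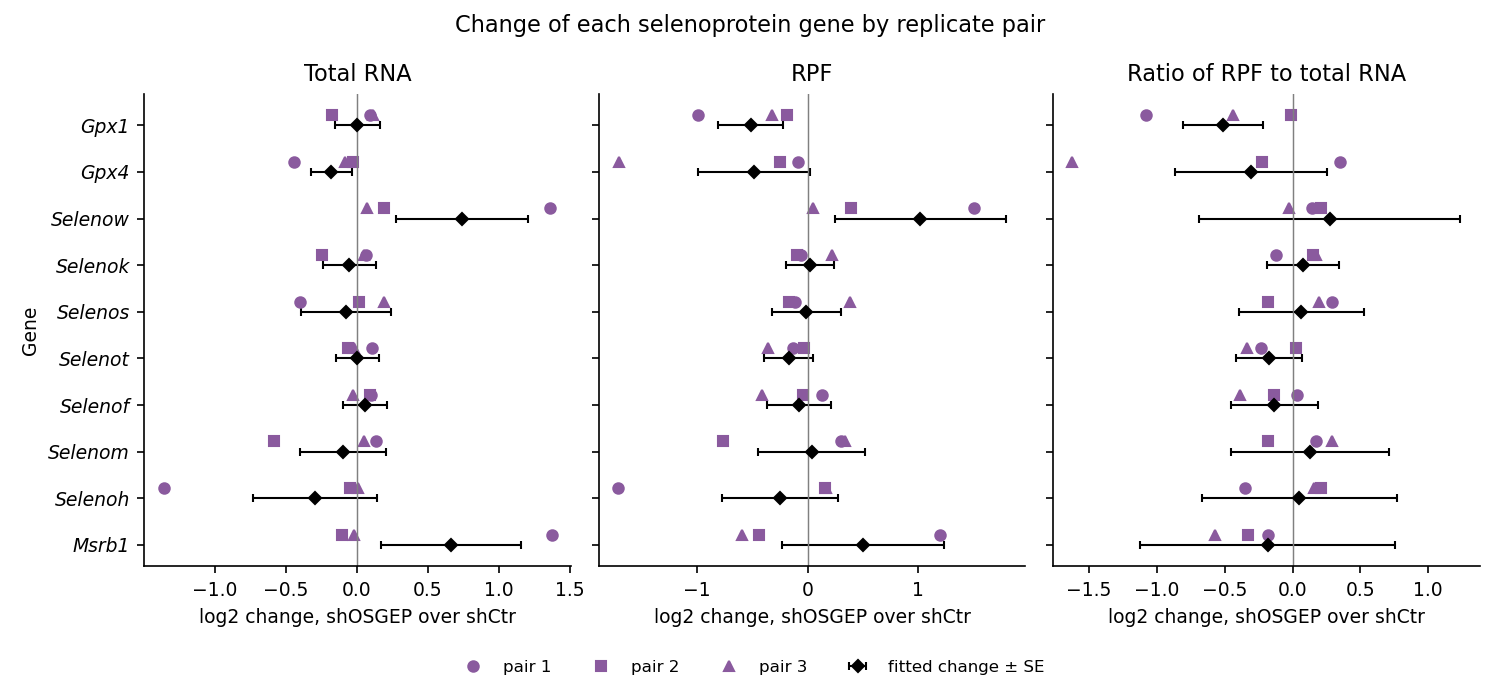
Log2 change of shOSGEP over shCtr for each selenoprotein gene in total RNA, RPF and their ratio. Purple symbols are the 3 replicate pairs and black diamonds the fitted change with its SE. Most SE bars cross or come close to 0, and the far symbols of Selenow, Selenoh and Msrb1 in total RNA and RPF are pair 1, whereas that of Gpx4 in RPF is pair 3 (−1.70).

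The second comparison asked how the members rank among themselves. Scaled per kb of exon, Gpx4 RNA led in shCtr at 160.5 ± 11.7 CPM per kb (SD, n = 3), followed by Selenot at 64.6 ± 8.42 and Selenof at 40.8 ± 4.08. These 3 did not overlap. Selenof, Selenos (36.0 ± 11.6) and Gpx1 (35.4 ± 5.27) overlapped with their neighbours in this order. Below them, Selenow (25.7 ± 4.92), Selenok (17.8 ± 3.13), Selenom (16.7 ± 3.82), Msrb1 (16.6 ± 2.40) and Selenoh (15.3 ± 2.37) formed a series in which each neighbour overlapped the next. In RPF, per kb of coding sequence, the order was different and depended on where the reads of Gpx4 were counted. With the counts of each gene alone, Selenof led at 93.3 ± 10.9 CPM per kb, then Selenot at 67.5 ± 2.94, Selenok at 51.3 ± 4.18 and Selenos at 36.8 ± 11.6, with no overlap between these neighbours. From Selenos down to Gpx4 (31.4 ± 7.17), Selenoh (22.2 ± 5.00), Selenow (18.3 ± 9.57), Gpx1 (15.8 ± 3.39), Msrb1 (12.9 ± 4.18) and Selenom (11.2 ± 3.72) each neighbour overlapped the next. With the processed copies added, Gpx4 led in RPF at 136 ± 19.4 CPM per kb, above Selenof without overlap, and Selenok (57.1 ± 9.42) overlapped with Selenot. Proteins of the endoplasmic reticulum were thus the 4 highest members in RPF only when Gpx4-ps2 was left out. The RNA order depends on the length used, since with the longest protein-coding transcript in place of all exons only Gpx4 kept its rank.

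The third comparison set footprints against RNA. The ratio of RPF per kb of coding sequence to total RNA per kb of exon was ranked among 11283 coding genes kept in both assays, separately in each of the 6 cell samples. Members spanned nearly the whole scale. Gpx4 lay at percentiles 0.20 to 1.57 and Gpx1 at 1.44 to 12.9, among the lowest ratios of all coding genes in every cell sample. Selenom (11.8 to 31.0), Msrb1 (7.41 to 34.9) and Selenow (7.71 to 45.2) also stayed below percentile 50 in all 6. Selenot (33.0 to 52.5), Selenos (33.2 to 57.5) and Selenoh (38.2 to 73.2) lay around the middle. Selenof (67.4 to 88.7) and Selenok (84.9 to 91.0) stayed above it. Thus 5 of 10 members were below percentile 50 in all 6 cell samples, against 30.7% of all ranked coding genes.

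Some of these places rest on how the values were made. With the copies added, Gpx4 moved from a median percentile of 0.63 to 26.1, whereas Gpx1, which has no copied window, stayed at 3.67. With the longest transcript as the length of the RNA, Selenof moved from 77.9 to 25.2, since all its annotated exons span 5819 bases, and 4 of 10 members were below percentile 50 in all cell samples, against 27.6% of genes. Selenok moved from 89.3 to 94.2 under that length, and Gpx1 was at 3.39. The low place of Gpx1 and the high place of Selenok were thus found with both lengths.

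**Figure D4:**
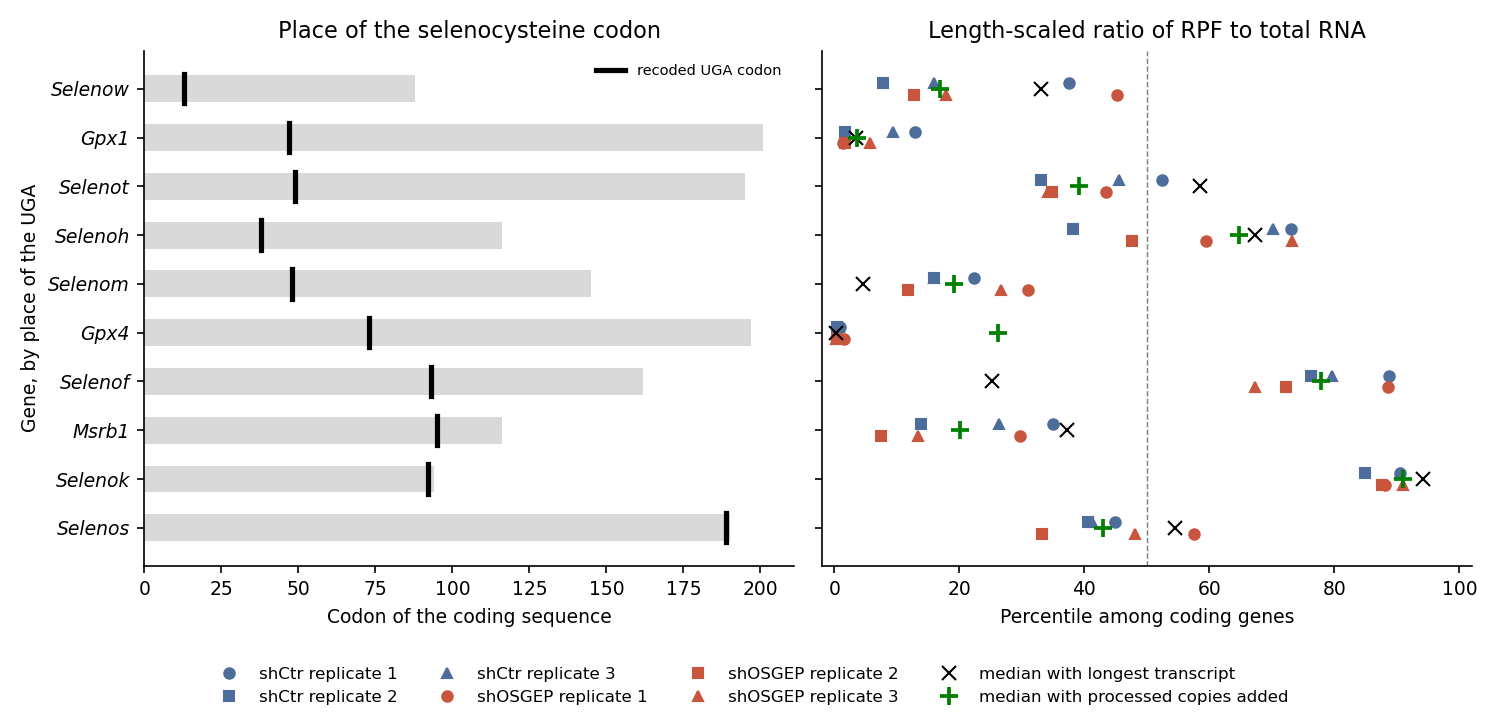
Left, length of each coding sequence in codons (grey bar) with the recoded UGA (black mark). Right, percentile of the length-scaled ratio of RPF to total RNA among coding genes, with 1 point per cell sample, a cross for the median with the longest transcript and a plus for the median with processed copies added. Gpx1 lies at the low end, as does Gpx4 until its copies are added (median 26.1). Among members with a late UGA, Selenok (codon 92 of 94) lies at the high end, Selenos (189 of 190) around the middle and Msrb1 (95 of 116) below it.

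Across the 10 members, the share of the coding sequence before the UGA and the mean shCtr log2 ratio correlated with a Pearson r of 0.47 and a Spearman rho of 0.44. The genes share the same 6 libraries and each is a single point, so this is a description. With the longest transcript r was 0.48 and rho 0.25, and with the copies added r was 0.53 and rho 0.54. Over the 9 members without Gpx4 they were 0.51 and 0.55, over the 8 without Gpx4 and Selenok 0.29 and 0.45, and over all 18 selenoprotein genes kept 0.42 and 0.24. Genes with the codon at the very end fell on both sides of the middle. Selenos (33.2 to 57.5) and the thioredoxin reductase Txnrd2 (55.3 to 73.6) lay nearer to it than the others. Selenok, the thioredoxin reductase Txnrd1 (70.4 to 82.2) and Selenoi (87.6 to 95.8), an enzyme of phospholipid synthesis, ranked high, but the thioredoxin reductase Txnrd3 (6.92 to 17.3) and the pseudokinase Selenoo (7.46 to 14.9) ranked low.

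Other genes of the same pathway were examined by lists. Of 14 other selenoprotein genes, 8 passed the filter in each fit and 0 were called. Their median change was −0.17 in total RNA, −0.28 in RPF and −0.09 for the ratio, with 7 of 8 below 0 in each. Pair 1 weighed heavily in total RNA, where the medians of pairs 1, 2 and 3 were −0.47, −0.07 and −0.01. In RPF they were −0.51, 0.05 and −0.36, so pairs 1 and 3 were both lower. For the ratio they were −0.04, 0.14 and −0.35, with pair 3 the lowest. Without replicate 1 the fitted medians were −0.05, −0.18 and −0.18. Txnrd1, with the most footprints of them, had a fitted change of −0.02 ± 0.17 in total RNA and −0.11 ± 0.29 in RPF. Selenoi had one of −0.15 ± 0.26 and −0.18 ± 0.33, and of −0.0089 ± 0.14 and −0.04 ± 0.37 without replicate 1. Sephs2, which makes the selenium donor and is itself a selenoprotein, was at 20.1 CPM in shOSGEP replicate 1 total RNA against 60.6 CPM in its control, and was at 64.2 and 58.8 CPM in the other shOSGEP libraries, beside 67.6 and 63.3 CPM. For Sephs2 RNA the pair differences were −1.59, −0.07 and −0.11, and for its footprints −2.41, 0.23 and −0.69. Its fitted change was −0.42 ± 0.40 in total RNA and −0.73 ± 0.55 in RPF, and without replicate 1 it was −0.10 ± 0.11 and −0.31 ± 0.37. Txnrd2, the mitochondrial reductase, likewise differed mainly in pair 1, with −1.20, −0.15 and −0.17 in total RNA, and its fitted change of −0.43 ± 0.30 was −0.17 ± 0.18 without replicate 1.

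All 16 genes of selenocysteine insertion and selenium supply passed the filter, and 0 were called. Their medians were 0.02, 0.12 and 0.04, and without replicate 1 they turned to −0.0067, −0.06 and −0.08. Secisbp2, the protein that binds the selenocysteine hairpin, was at 3.83, 6.24 and 5.79 CPM in shCtr RPF and at 7.68, 8.67 and 8.29 CPM in shOSGEP RPF. These groups did not overlap, which 2.43% of all genes tested in RPF did in this direction, and the pairs differed by 0.99, 0.47 and 0.51. In total RNA Secisbp2 overlapped between the genotypes (11.9, 14.7 and 15.1 against 21.3, 17.2 and 15.0 CPM). Secisbp2 had a fitted change of 0.63 ± 0.30 in RPF (edgeR adjusted p 0.9998), 0.36 ± 0.21 in total RNA and 0.27 ± 0.34 for the ratio, and without replicate 1 these were 0.48 ± 0.27, 0.10 ± 0.15 and 0.38 ± 0.27. Its partner Eefsec, singled out after its values were seen, differed in the other direction. Eefsec was at 115, 115 and 104 CPM in shCtr total RNA and at 69.9, 98.0 and 103 CPM in shOSGEP, with no overlap, against 3.09% of all genes tested in total RNA in this direction. In RPF it was lower in 3 of 3 pairs (−0.79, −0.38 and −0.41), with groups that overlapped. The fitted change of Eefsec was −0.30 ± 0.18 in total RNA and −0.52 ± 0.29 in RPF, with edgeR adjusted p of 0.975 and 0.9998, and without replicate 1 it was −0.13 ± 0.12 and −0.40 ± 0.37. Ncl and Rpl30, a nucleolar and a ribosomal protein that also bind the hairpin, had the most footprints of the list, with fitted changes of 0.17 ± 0.44 and 0.13 ± 0.43 in RPF, the second of which turned to −0.13 ± 0.55 without replicate 1. Trit1 had the smallest unadjusted p of the list for the ratio, with 0.55 ± 0.48 and pairs of −0.11, 0.44 and 1.03.

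Relatives without selenocysteine, most of which have cysteine in its place, gave the values without recoding. Of 9, 6 passed the filter in total RNA and for the ratio and 7 in RPF, with 0 called and medians of −0.06, −0.21 and −0.25 (−0.07, −0.33 and −0.17 without replicate 1). Sephs1, the relative of Sephs2 with threonine at that position, was at 27.1, 31.0 and 27.7 CPM in shCtr RPF and at 16.6, 26.0 and 21.2 CPM in shOSGEP RPF, with no overlap, against 2.64% of all genes tested in RPF in this direction. Its fitted change was −0.43 ± 0.26, and −0.33 ± 0.27 without replicate 1. Its ratio ranked at percentiles 53.5 to 70.0, beside 5.58 to 38.5 for Sephs2. Gpx8, a cysteine peroxidase of the endoplasmic reticulum, ranked at 4.65 to 37.1, a range that overlapped that of Gpx1. For the methionine sulfoxide reductases, Msrb2 (15.1 to 56.6), Msrb3 (73.6 to 94.5) and Msra (41.8 to 94.5) stood beside Msrb1 (7.41 to 34.9). Mien1, a relative of Selenow, was at 21.9 to 68.0. Of the 6 ranked relatives, 1 was below percentile 50 in all cell samples, against 30.7% of all ranked coding genes. Of the 8 ranked other selenoprotein genes, 5 were. Msrb3 RNA, like that of Msrb1, was far higher in shOSGEP replicate 1 than in its control (112 against 14.3 CPM), and was at 9.25 and 18.1 CPM in the other shOSGEP libraries. The pairs of Msrb3 differed by 2.97, 0.42 and 0.55, and its fitted change of 2.05 ± 0.90 was 0.50 ± 0.41 without replicate 1.

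Partners of the endoplasmic reticulum members and factors of nonsense-mediated decay were the last lists. Of 10 partners, 9 passed the filter and 0 were called, with medians of 0.06 in total RNA, −0.03 in RPF and −0.02 for the ratio, or 0.02, −0.18 and −0.20 without replicate 1. Vcp and Uggt1 had the most footprints, with fitted changes of −0.03 ± 0.44 and 0.07 ± 0.43 in RPF, and of −0.30 ± 0.48 and −0.19 ± 0.49 without replicate 1. Sel1l had the smallest unadjusted p of this list in total RNA (0.28 ± 0.20) and Edem1 in RPF (−0.45 ± 0.30). All 10 decay factors passed and 0 were called, with medians of −0.13, −0.09 and 0.09, or −0.06, 0.05 and 0.06 without replicate 1. Smg1 and Smg5 had the most footprints, with 0.05 ± 0.45 and −0.49 ± 0.53 in RPF, and 0.15 ± 0.31 and −0.21 ± 0.35 without replicate 1. Upf3a had the smallest unadjusted p in total RNA (0.41 ± 0.20) and in RPF (0.37 ± 0.27), and Upf2 for the ratio (0.18 ± 0.33).

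Likeness to the members was measured over the 12 libraries, after centring log2 CPM within each assay. Of 6554 other coding genes with a mean of at least 10 CPM in both assays, Atp6v1g1 (Pearson r 0.95) and Tax1bp3 (0.95) were among the 3 that followed the mean of the 10 members most closely. The libraries share replicate numbers and composition, so these correlations are descriptions.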

How the data were processed

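Ribosome-protected fragments and total RNA of B16F10 cells were analysed in 12 libraries. The deposited values were read counts per Ensembl gene, whole numbers that the authors had not normalised, in a table per assay, with 0 columns left without a sample. Per the labels, FastQC 0.11.9, Trim Galore 0.6.6, cutadapt and STAR were used, with GRCm39 and GRCm38 both named. The study's methods describe footprints aligned to coding transcripts with perfect matches kept, and Salmon quantification for RNA. Which of these steps made the deposited tables, in which ribosomal RNA genes also held counts, was not given in the sources used here, nor were the strand setting and the treatment of multi-mapping reads, so reads of near-identical genes may have been split. Groups and replicate numbers came from the labels. The members, lists and tests were chosen with earlier results of these data known. Symbols, lengths and coordinates came from GENCODE M21 on GRCm38, in which 55227 of 55487 gene IDs were found. The coding sequences of the members were matched by length to RefSeq, as were those of other selenoprotein genes where a match was found. For all other genes the longest annotated coding sequence was used.

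Counts were filtered with filterByExpr, scaled with TMM and tested by quasi-likelihood in edgeR 4.0.16 (R 4.3.3), per assay, with a threshold of 0.05 on Benjamini-Hochberg adjusted p. Genes tested numbered 14516 in total RNA, 13529 in RPF and 12560 for the ratio. The ratio was tested with an assay-by-genotype interaction term over all 12 libraries, with TMM within each assay. Log2 CPM had a prior count of 2. The code was tested on simulated counts with changes larger than those of the members, which says nothing on power for changes of the size measured.

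Replicates of a group differed by more than sampling noise (chi-square per degree of freedom of at least 81.1). Deviations of same-numbered libraries correlated for replicates 1, 2 and 3 (RPF: 0.59, 0.51 and 0.66, total RNA: 0.52, 0.54 and 0.29). The numbers, which come from the labels, therefore pair shCtr with shOSGEP within an assay. Whether they also pair RPF with total RNA was not checked. A fit with the replicate as a block was an alternative, next to DESeq2 1.42.0, limma 3.58.1, other filters and size factors, and fits without each library.

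Named from every other list were the 2 genes with the highest shCtr RPF level and the gene with the smallest unadjusted p in each fit. Some genes that the rules select are not reported here. Copies were sought as exact 30-base windows of each coding sequence elsewhere in GRCm38. The thresholds of the study were a log2 change beyond 0.5 and an unadjusted p under 0.05. Replicates were separate transductions, and p-values measure the spread between them.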

Additional observations from a re-analysis of the deposited data

How the results depend on the processing

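No setting gave a member an adjusted p under 0.05, in any of the 3 families, and at most 1 of 10 members had an unadjusted p under 0.05 (Selenow in total RNA without shOSGEP replicate 2 and in RPF without a filter, and Gpx1 for the ratio without shCtr replicate 2). Shares over all genes are not given for these settings. The thresholds of the study, applied to the fits as reported, also gave 0 members, but these 3 changes passed them in the settings named (1.03, 0.90 and −0.81). Of the 30 member changes, 7 kept their sign throughout, namely Gpx4 in total RNA, Gpx1, Gpx4 and Selenot in RPF, and Gpx1, Selenot and Msrb1 for the ratio. The replicate block turned Selenos (0.035) and Selenom (−0.032) in RPF and Selenoh (−0.0048) for the ratio, and changed no call. Both RLE size factors and DESeq2 turned Gpx1 (−0.0023) and Selenot (−0.0035) in total RNA. Without a filter on low counts Gpx1 (−0.018) and Selenot (−0.018) turned in total RNA and Selenok (−0.042) and Selenom (−0.051) in RPF, where the median became −0.11. Selenot in total RNA (−0.00017) and Selenos in RPF (0.0047) turned with protein-coding genes only, and Selenos in RPF (0.0099) with at least 10 counts in every library. Limma voom with quality weights turned Msrb1 (−0.13) in total RNA, Selenow (−0.089), Selenok (−0.040), Selenos (0.017), Selenom (−0.45) and Msrb1 (−0.64) in RPF, and Selenow (−0.25), Selenom (−0.22) and Selenoh (−0.13) for the ratio, with medians of −0.18 in RPF and −0.22 for the ratio. The cause of these turns was not tested.

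Leaving out libraries, 1 or a replicate of both genotypes at a time, moved the median over members from −0.12 to 0.12 in total RNA, from −0.32 to 0.034 in RPF and from −0.27 to 0.075 for the ratio. Where 2 libraries of a genotype remained, the fit pooled the spread. Signs turned within these ranges in total RNA for Gpx1 (−0.077 to 0.13), Selenot (−0.088 to 0.10), Selenof (−0.050 to 0.14), Selenom (−0.45 to 0.097), Selenok (−0.19 to 0.075), Selenos (−0.38 to 0.16), Selenow (−0.015 to 1.03), Selenoh (−0.59 to 0.074) and Msrb1 (−0.19 to 0.94). In RPF they turned for Selenos (−0.25 to 0.18), Selenof (−0.33 to 0.090), Selenok (−0.074 to 0.076), Selenom (−0.49 to 0.32), Selenow (−0.30 to 1.49), Selenoh (−0.78 to 0.14) and Msrb1 (−0.83 to 0.88). For the ratio they turned for Selenof (−0.42 to 0.017), Selenok (−0.070 to 0.18), Selenoh (−0.29 to 0.34), Selenow (−0.29 to 0.61), Selenos (−0.066 to 0.27), Selenom (−0.023 to 0.24) and Gpx4 (−0.93 to 0.098). With protein-coding counts as the library size, the mean change of the summed total RNA level by pair was 0.024 in place of −0.0094. The longest transcript left 1 member at its rank in the RNA order, and adding the copies left 5 at their rank in the RPF order. For the place of the UGA, rho was 0.44, against 0.25 with the longest transcript, 0.24 over all selenoprotein genes kept and 0.54 with the copies, while r lay between 0.42 and 0.53 in these. These alternatives for rho, the RPF order with copies, the other lists without replicate 1, the percentiles with the longest transcript and the fits with copies were added after seeing the data. The median percentile of the ratio over members was 29.6, against 35.2 with the longest transcript and 32.6 with the copies. Footprint counts ranged from 29 to 2138 per member, and their part in the precision of these changes was not tested.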
